A study of Mus musculus with 11 samples.

Results

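The genes described here are 39 genes of macrophages and monocytes, picked by name from a table of 24515 mouse genes; all 39 were present and all 39 passed the filter on low counts that left 15175 genes for testing. They were followed in 11 lung libraries from 5 Gprc5a-/- mice. Every mouse gave both normal lung and tumor tissue, and every mouse lacked Gprc5a, a receptor of lung epithelium. Each had received NNK (nicotine-derived nitrosamine ketone, a tobacco carcinogen) by injection into the peritoneum at 50 mg/kg, 3 times per week over 8 weeks. The groups were 5 normal lungs adjacent to tumors, 3 tumors tagged ADN and 3 tumors tagged ADC, tags that the labels do not spell out. Mouse m335 (4 months after NNK) gave a normal lung, an ADN and an ADC tumor. One normal lung and one ADN tumor each came from m368 (6 months) and m350 (7 months). One normal lung and one ADC tumor each came from m372 and m378 (7 months). Lungs of mice without NNK or with intact Gprc5a were not analysed here, and the sources used here do not give strain, sex or age.

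Alveolar macrophages live in the air spaces, where they take up surfactant and debris. Their identity depends on GM-CSF from the epithelium and on the nuclear receptor PPAR gamma, and mouse cells of this kind carry Marco, Itgax (CD11c), Chil3 and the Ear ribonucleases. Interstitial macrophages lie in the tissue and make C1q, the first component of the classical complement pathway. Monocytes enter from blood through the chemokine receptor CCR2, and macrophages of most kinds need CSF1 receptor signals.

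Total counts were 19938822 to 46987587 per library, and Gprc5a had 0 to 19 counts in each. Levels are CPM, a gene's count relative to its library's size after TMM scaling, and are given in the mouse order m335, m368, m350, m372, m378 for normal lungs, m335, m368, m350 for ADN tumors and m335, m372, m378 for ADC tumors. Tests were two-sided, by edgeR's quasi-likelihood model blocked on the animal, and a gene passed at an adjusted p under 0.05 over all genes tested. As these are whole pieces of tissue, fewer cells of a type and less RNA per cell cannot be told apart.

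A pair of libraries stood apart for these genes. The normal lung of mouse m368 was the highest of the 5 normal lungs for 28 of the 39 genes (71.8%, compared with 22.04% of all genes tested). Chil3, a chitinase-like protein secreted by alveolar macrophages, reached 8718 CPM there and 324 to 915 CPM in the other normal lungs. Summed adipocyte markers were also highest there, at 529 CPM against 20.4 to 128 CPM in the other normal lungs, and fat cells express Lpl and Pparg too. The ADC tumor of mouse m335 was the highest of the 6 tumors for 17 of 39 genes (43.6%, compared with 26.2% of all genes). Summed markers of T cells were at 595 CPM in that tumor and at 31.5 to 75.8 CPM in the other tumors, those of B cells at 477 CPM against 48.8 to 119.5 CPM, and those of alveolar type 2 cells at 38124 CPM against 111130 to 139640 CPM. Their part in the results was not tested.

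The members include 2 pairs of near-identical genes, so the sequences are shown first for those: in each pair 1 copy passed the test in tumors and the other did not, and reads could be split between copies by the authors' counting. Lyz1 and Lyz2 encode lysozyme, an enzyme that breaks bacterial cell walls, and lie side by side on chromosome 10 (minus strand). Their coding sequences are 444 bases each and 95.0% identical, with a longest identical run of 118 bases. The first 90 coding bases, from GENCODE transcripts on GRCm38, follow 5′ to 3′ with the 7 differing bases in capitals.
Lyz1, chr10:117292749-117292838: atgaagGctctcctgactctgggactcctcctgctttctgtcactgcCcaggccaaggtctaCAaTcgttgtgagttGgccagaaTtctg
Lyz2, chr10:117282153-117282242: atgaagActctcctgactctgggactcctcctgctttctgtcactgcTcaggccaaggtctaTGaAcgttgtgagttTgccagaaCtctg
The 100 bases just before each gene's start (RefSeq, GRCm38.p6) were likewise near copies, with 8 differing bases in capitals.
Lyz1, chr10:117292869-117292968: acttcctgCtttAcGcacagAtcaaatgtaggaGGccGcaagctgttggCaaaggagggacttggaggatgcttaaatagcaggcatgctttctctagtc
Lyz2, chr10:117282273-117282372: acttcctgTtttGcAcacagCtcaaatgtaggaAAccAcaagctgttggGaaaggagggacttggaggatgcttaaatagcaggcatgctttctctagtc

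Ear1 and Ear2, ribonucleases first described in eosinophils and also made by mouse alveolar macrophages, lie on opposite strands of chromosome 14. Their coding sequences (465 and 468 bases) are 95.1% identical, with a longest identical run of 96 bases. The first 90 coding bases differ at 2 positions, in capitals.
Ear1, chr14:43819320-43819409, minus strand: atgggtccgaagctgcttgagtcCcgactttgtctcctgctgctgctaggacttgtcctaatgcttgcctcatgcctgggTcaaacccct
Ear2, chr14:44102887-44102976, plus strand: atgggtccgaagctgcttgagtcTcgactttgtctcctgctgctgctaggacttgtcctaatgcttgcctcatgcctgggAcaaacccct
In the deposited table Ear1 and Ear2 had fractional counts in all 11 libraries, so the levels of either one are uncertain. Lyz1 had fractional counts in 9 libraries, so its level and its share of the lysozyme pair are uncertain too. Counts as large as those of Lyz2 (259026 to 1210000) were deposited without decimals, so whether its reads were split could not be seen.

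The 39 genes did not move as one block between tumor and normal lung. In tumors against normal lungs, Ear1 and Cd14 rose (2 of 39, with 3.68% of all genes tested passing in that direction) and Cd163, F13a1 and Lyz1 fell (3 of 39, with 7.91% of all genes passing). The median log2 fold change over the 39 genes was 0.08, beside -0.03 over all genes tested, and 22 of 39 were positive. Under scaling by library totals the members' median was -0.11 with 19 positive, while that of all genes was -0.22. Leaving out the m335 ADC tumor gave -0.11 with 17 positive. No member had all 6 tumors above all 5 normal lungs (3.55% of all genes did), and the same 3 falling genes had all tumors below all normal lungs (7.91% of all genes did). Levels also varied more between libraries than for most genes. The median standard deviation of log2 CPM was 0.76 among normal lungs and 0.88 among tumors, beside 0.31 and 0.52 over all genes tested. The tumor values pool both tags and both tumors of mouse m335, so they are not a spread between animals alone.

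**Figure D1:**
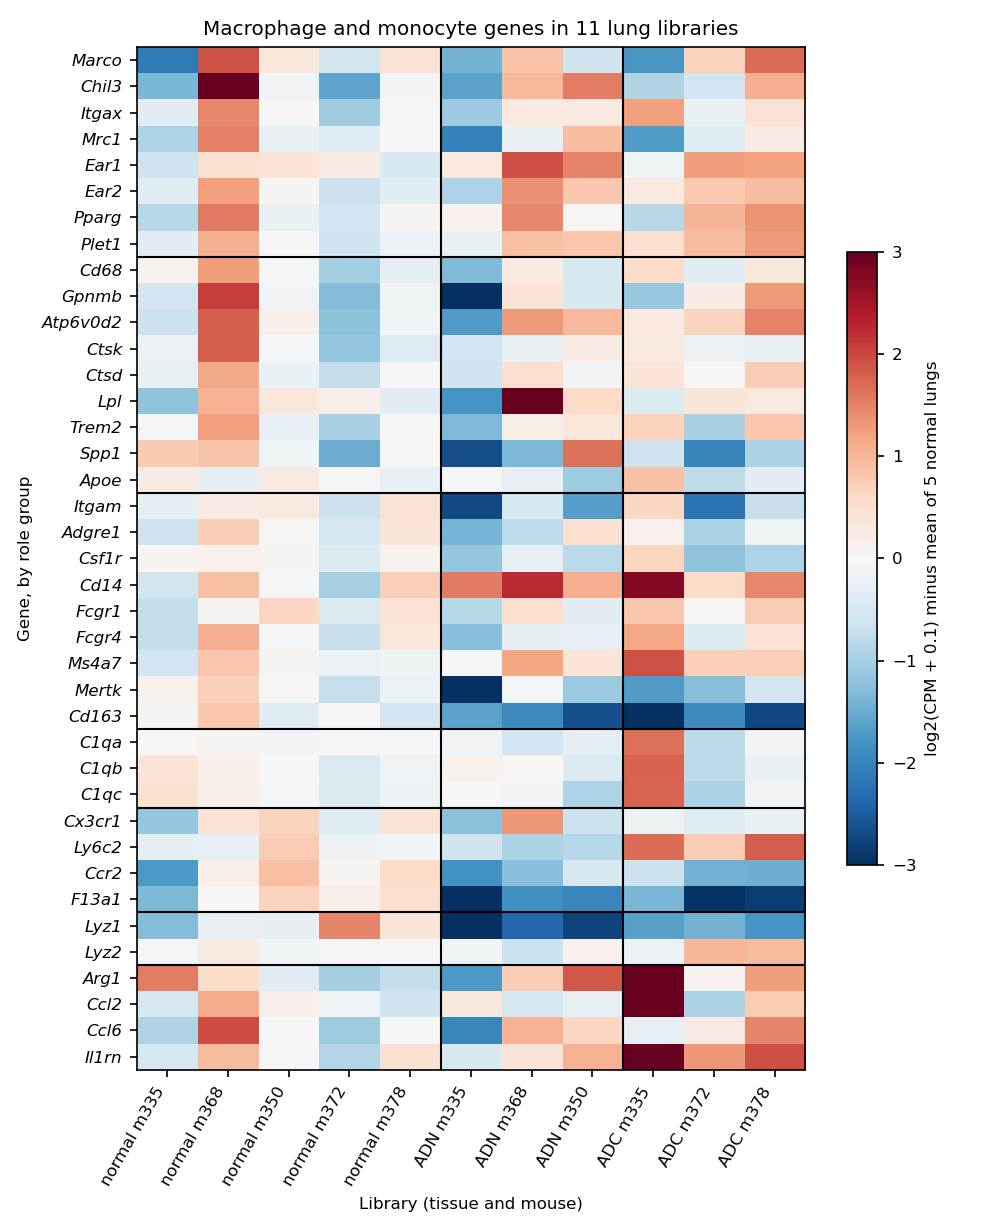
Each row is a gene, grouped by role with black lines between groups, and each column a library; color gives log2(CPM + 0.1) minus the mean of the 5 normal lungs, limited to ±3 on the color scale. The normal lung of mouse m368 is red over most alveolar macrophage and lysosomal genes, the ADC tumor of mouse m335 over the C1q genes, Arg1, Ccl2 and Il1rn, and Cd163, F13a1 and Lyz1 are blue in all 6 tumors.

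Among the 8 alveolar macrophage identity genes, 1 rose in tumors and 0 fell, and 7 had a positive log2 fold change (median 0.56). Ear1 (chromosome 14, 43818765 to 43819639) stood at 6.35, 13.5, 13.1, 11.4 and 7.19 CPM in normal lungs, at 12.0, 37.8 and 27.7 CPM in ADN tumors and at 8.96, 23.7 and 22.8 CPM in ADC tumors. Both tumors of mouse m335 lay within the range of the normal lungs, the other 4 lay above it, and 6 of 6 tumors exceeded their own normal lung. The mean went from 10.3 ± 3.33 CPM (SD, n = 5) to 22.2 ± 10.6 CPM (SD, n = 6), or 1.17 ± 0.20 (SE) on the log2 scale (adjusted p = 0.0075, edgeR). Without the mouse block the adjusted p was 0.0592, the highest of 14 alternatives that began at 4.11e-06. Its near copy Ear2 (chromosome 14, 44102654 to 44103531) stood at 42.0, 124, 56.3, 34.2 and 42.7 CPM in normal lungs, 27.8, 138 and 93.8 CPM in ADN tumors and 64.8, 91.8 and 101 CPM in ADC tumors. Its groups overlapped, and its log2 fold change was 0.69 ± 0.29 (adjusted p = 0.171; 0.0339 without mouse m335). Ear1 took 16.3% ± 5.91 (SD, n = 5) of the counts of the pair in normal lungs and 21.0% ± 5.88 (SD, n = 6) in tumors.

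Chil3 (chromosome 3, 106147554 to 106167564) had the highest mean level of the group. Normal lungs were at 372.5, 8718, 895.5, 324 and 915 CPM, ADN tumors at 320.5, 1906 and 2812 CPM and ADC tumors at 523, 650.0 and 2072 CPM. A single normal lung, that of mouse m368, lay above every tumor, and the other 4 overlapped the tumors. The log2 fold change was 0.44 ± 0.51 (adjusted p = 0.65); without mouse m368 it was 0.92 (adjusted p = 0.104) and without the mouse block -0.70 (adjusted p = 0.654). Plet1, a surface protein of alveolar macrophages and some epithelia (chromosome 9, 50494525 to 50505639), stood at 57.6, 153, 74.5, 47.9 and 63.7 CPM in normal lungs, 63.1, 135 and 128 CPM in ADN tumors and 102, 137 and 175 CPM in ADC tumors. The scavenger receptor Marco, the integrin Itgax, the mannose receptor Mrc1 and the nuclear receptor Pparg had log2 fold changes between -0.30 (Mrc1) and 0.71 (Pparg), none passing. Each was highest among normal lungs in mouse m368, with Marco at 103 CPM there and 6.21 to 37.2 CPM in the other 4.

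Of 9 genes of lysosomes and lipid handling, 0 passed in tumors against normal lungs at the adjusted threshold, and 0 had an unadjusted p under 0.05 (median -0.04; DESeq2 called 0 as well). Ctsd, the lysosomal protease cathepsin D (chromosome 7, 142375916 to 142387870), was the most abundant, with 1438, 3710, 1466, 1026 and 1692 CPM in normal lungs, 1115, 2403 and 1603 CPM in ADN tumors and 2201, 1717 and 2790 CPM in ADC tumors. The groups overlapped throughout, with a log2 fold change of 0.24 ± 0.28. Atp6v0d2, a subunit of the proton pump of lysosomes (chromosome 4, 19876838 to 19922566), stood at 28.9, 157, 50.3, 19.3 and 42.8 CPM in normal lungs, 13.9, 111 and 89.4 CPM in ADN tumors and 55.2, 72.3 and 127 CPM in ADC tumors. Spp1 (osteopontin, chromosome 5, 104435111 to 104441053) had the largest difference of the group, -0.998 ± 0.60 (adjusted p = 0.34). It was at 297.5, 309.8, 157, 61.4 and 171.5 CPM in normal lungs, 27.2, 67.7 and 546 CPM in ADN tumors and 112, 43.9 and 89.2 CPM in ADC tumors, so 1 tumor, the ADN tumor of mouse m350, was above its own normal lung and 5 were below. Lpl, the lipoprotein lipase of alveolar macrophages and fat, reached 2269 CPM in the ADN tumor of mouse m368 against 37.1 to 191 CPM in the other tumors. Summed adipocyte markers in the tumors were 0.231 to 4.23 CPM, and 1.67 CPM in that tumor. The remaining genes of the group were Cd68, Gpnmb, Ctsk, the lipid receptor Trem2 and the lipid carrier Apoe, with log2 fold changes between -0.35 (Apoe) and 0.08 (Trem2).

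The 9 surface receptor genes split: 1 rose, 1 fell and 7 did not pass. Cd14, the co-receptor that hands lipopolysaccharide to TLR4, lies on chromosome 18. It stood at 39.7, 108, 57.1, 29.3 and 96.1 CPM in normal lungs, 173, 276 and 124 CPM in ADN tumors and 395, 86.6 and 160 CPM in ADC tumors. All tumors except the ADC tumor of mouse m372 exceeded every normal lung, and 6 of 6 exceeded their own. The mean rose from 66.0 ± 34.5 (SD, n = 5) to 202 ± 114 CPM (SD, n = 6), by 1.55 ± 0.36 on the log2 scale (adjusted p = 0.0257). Leaving out m350, m368, m372 or the m335 normal lung ended the call (adjusted p = 0.0627, 0.0613, 0.0821 and 0.0557), within a range of 6.6e-05 to 0.0821 over 14 alternatives.

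Cd163, the scavenger receptor for hemoglobin-haptoglobin (chromosome 6, 124304651 to 124330527), was the lowest of the 39 genes in tumors, with 6 to 184 counts per library over all 11. It went from 3.35, 5.72, 2.41, 3.22 and 2.104 CPM in normal lungs to 0.971, 0.768 and 0.428 CPM in ADN tumors and 0.203, 0.761 and 0.395 CPM in ADC tumors. Every tumor lay below every normal lung. The fall was by 2.47 ± 0.51 on the log2 scale (adjusted p = 0.0157). Leaving out m378 or the m335 normal lung gave adjusted p values of 0.0599 and 0.0679, in a range from 7.755e-06 over the alternatives. Csf1r, the receptor for CSF1 and IL-34, was at 116 ± 16.3 CPM (SD, n = 5) in normal lungs and 83.7 ± 49.4 CPM (SD, n = 6) in tumors (-0.61 ± 0.32, adjusted p = 0.271), and 5 of 6 tumors were below their own normal lung. The exception was the ADC tumor of mouse m335 at 178.5 CPM. Mertk, a receptor for the uptake of dying cells, was below the own normal lung in 6 of 6 tumors (-1.18 ± 0.38, adjusted p = 0.0809), and Ms4a7 above it in 6 of 6 (0.91 ± 0.41, adjusted p = 0.206). The integrin Itgam, Adgre1 (F4/80) and the Fc receptors Fcgr1 and Fcgr4 had log2 fold changes between -1.02 (Itgam) and 0.27 (Fcgr1).

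The 3 chains of C1q are encoded side by side on chromosome 4 (C1qb 136880145 to 136886177, C1qc 136889802 to 136892914, C1qa 136895916 to 136898844). C1qa was at 109, 114, 101.5, 106 and 107 CPM in normal lungs, 99.1, 71.6 and 88.0 CPM in ADN tumors and 339, 62.3 and 101.3 CPM in ADC tumors. C1qb was at 137, 115, 102, 76.8 and 97.0 CPM in normal lungs, 114, 108 and 78.5 CPM in ADN tumors and 353, 60.4 and 90.5 CPM in ADC tumors. For C1qc the values were 112, 91.0, 80.5, 62.1 and 72.6 CPM in normal lungs, 82.6, 77.8 and 43.4 CPM in ADN tumors and 273, 42.5 and 76.3 CPM in ADC tumors. The ADC tumor of mouse m335 was the highest library for each chain, while the normal lungs of C1qa kept within 1.12-fold of each other. Log2 fold changes in tumors against normal lungs were -0.11 ± 0.38, 0.00 and -0.15 ± 0.35. Without that tumor they were -0.32, -0.19 and -0.36 (adjusted p = 0.194, 0.35 and 0.16, edgeR). No SE is given for C1qb, because the SE was derived from the fold change and loses meaning this close to no change. With another scaling of library sizes (RLE) C1qb was at 0.02 ± 0.32. The chains followed each other over the 11 libraries from 5 mice, with Pearson's r of log2 CPM between 0.891 and 0.975. Against the 8 alveolar identity genes the median r of the 3 chains was -0.287, over 24 pairs from -0.551 to 0.48. Itgax was positive with each chain. These correlations share libraries and depth and are a description.

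The stretch before the start of C1qb and C1qc is shown because these neighbors moved together. In the 250 bases before the start, the sequence GAGGAA, a core of sites for the myeloid factor PU.1, was sought on both strands (TTCCTC on the other), and so was the E-box CACGTG. A table of RefSeq promoters (GRCm38.p6) matched 31 of the 39 genes. Of these 13 held GAGGAA (41.9%, compared with 23.4% of 32544 mouse promoters of the same length) and 1, Ctsd, held CACGTG (3.23%, compared with 6.03%). The motifs overlapped each other in 2 of the 32544 promoters. A match is a string of letters and not a measured site. The 200 bases before each start follow with the matches in capitals, 24 bases before the start in C1qb and 187 in C1qc.
C1qb, chr4:136886201-136886400, minus strand: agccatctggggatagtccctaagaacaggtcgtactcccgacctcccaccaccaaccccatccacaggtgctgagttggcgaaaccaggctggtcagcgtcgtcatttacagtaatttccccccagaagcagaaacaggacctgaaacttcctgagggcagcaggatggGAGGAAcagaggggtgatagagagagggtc
C1qc, chr4:136892915-136893114, minus strand: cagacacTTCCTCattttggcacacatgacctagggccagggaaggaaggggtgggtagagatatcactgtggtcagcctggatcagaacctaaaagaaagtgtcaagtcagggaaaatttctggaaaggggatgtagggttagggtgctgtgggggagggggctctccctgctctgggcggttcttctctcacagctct

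Of the 4 genes of monocyte recruitment and coagulation, 1 fell in tumors and 0 rose. F13a1, the A subunit of clotting factor XIII, made by monocytes and resident macrophages (chromosome 13, 36867178 to 37050244), stood at 8.73, 22.6, 36.5, 24.8 and 32.0 CPM in normal lungs, 1.47, 6.21 and 5.68 CPM in ADN tumors and 8.59, 2.81 and 3.04 CPM in ADC tumors. Every tumor lay below every normal lung, but only by 8.59 against 8.73 CPM within mouse m335. The mean went from 24.9 ± 10.6 (SD, n = 5) to 4.63 ± 2.65 CPM (SD, n = 6), a log2 fold change of -2.34 ± 0.55 (adjusted p = 0.0277). It did not pass with m350, m368, m372 or m378 left out (adjusted p = 0.0958, 0.0628, 0.0972 and 0.101) and ranged down to 5.35e-05 over the other alternatives. Ccr2 was below the own normal lung in 5 of 6 tumors, at 46.5 ± 23.0 (SD, n = 5) and 18.5 ± 6.84 CPM (SD, n = 6) with an adjusted p of 0.116. Cx3cr1, the fractalkine receptor, was at -0.06 ± 0.35. Ly6c2, a marker of classical monocytes that shares sequence with Ly6c1 and was counted in fractions in all libraries (chromosome 15, 75108161 to 75111949), stood at 27.2, 28, 56.5, 29.6 and 31.1 CPM in normal lungs. It was at 21.95, 17.2 and 18.4 CPM in ADN tumors and at 105, 54.8 and 117 CPM in ADC tumors. All ADN tumors were below all normal lungs, and the ADC tumors were above all of them but for the normal lung of mouse m350, which lay just above the lowest ADC tumor. Summed neutrophil markers were 76.6 to 522 CPM in normal lungs and 13.1 to 424 CPM in tumors, and their part in these results was not tested.

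Of the 2 lysozyme genes Lyz1 fell and Lyz2 did not pass. Lyz1 (chromosome 10, 117287795 to 117292868) was at 653, 1358, 1322, 4438 and 2084 CPM in normal lungs, 82.2, 314 and 235 CPM in ADN tumors and 521, 600.1 and 473 CPM in ADC tumors. Every tumor lay below every normal lung, and the normal lung of mouse m372 was the highest library. Lyz1 fell by 2.11 ± 0.48 on the log2 scale (adjusted p = 0.0235). Leaving out m350, m368, m372 or m378 ended this call too (adjusted p = 0.083, 0.065, 0.0817 and 0.0787), within a range of 1.91e-05 to 0.083 over the alternatives. Lyz2 (chromosome 10, 117277541 to 117282272), which alveolar type 2 cells make as well as macrophages, had the highest level of the 39 genes. It was at 13360, 16978, 12908, 13697 and 13534 CPM in normal lungs, 12797, 9038 and 15395 CPM in ADN tumors and 12426, 27911 and 26896 CPM in ADC tumors. The ADC tumors of mice m372 and m378 exceeded all other libraries, and the rest overlapped (0.24 ± 0.31, adjusted p = 0.692). Lyz1 held 4.66% to 24.5% of the counts of the pair in normal lungs (11.8% ± 7.74, SD, n = 5) and 0.638% to 4.02% in tumors (2.23% ± 1.25, SD, n = 6). Summed type 2 cell markers were 43529 to 58870 CPM in normal lungs and 38124 to 139640 CPM in tumors. The same normal lung of mouse m372 also had the highest T cell markers of the normal lungs, 457 CPM against 103 to 195 CPM, and the part of either in the results was not tested.

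Among the 4 secreted and induced factors, 0 passed in tumors against normal lungs and 0 had an unadjusted p under 0.05, although all 4 log2 fold changes were positive (median 0.98). DESeq2 called Il1rn (adjusted p = 0.049). Arg1, the arginase of alternatively activated macrophages (chromosome 10, 24915207 to 24927470), had 20.2, 10.01, 5.60, 3.36 and 4.21 CPM in normal lungs, 2.04, 11.8 and 25.5 CPM in ADN tumors and 135, 7.52 and 16.6 CPM in ADC tumors. It was above the own normal lung in 5 of 6 tumors and spanned 66.2-fold among tumors (1.49 ± 0.82, adjusted p = 0.29; 0.0296 without the ADN tumor of mouse m335 and 0.0351 without all 3 libraries of that mouse). Ccl6, a chemokine of alveolar macrophages (chromosome 11, 83587886 to 83593087), was the most abundant, with 188.5, 1377, 354, 169 and 355 CPM in normal lungs, 91.6, 731 and 545 CPM in ADN tumors and 297, 420.0 and 979 CPM in ADC tumors. Ccl2, the ligand of CCR2, stood at 22.6 CPM in the ADC tumor of mouse m335 and at 1.08 to 3.75 CPM in the other tumors. Il1rn, the interleukin 1 receptor antagonist (chromosome 2, 24336860 to 24351491), was at 5.75, 16.0, 8.38, 4.45 and 11.5 CPM in normal lungs, 6.06, 10.9 and 17.2 CPM in ADN tumors and 76.0, 20.7 and 32.2 CPM in ADC tumors. All 3 ADC tumors exceeded all normal lungs and all ADN tumors.

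The tumors were then taken by tag. In ADN tumors Ear1 rose (1 of 39, with 2.68% of all genes passing) and Lyz1 fell (1 of 39, with 4.84% of all genes). At an unadjusted p under 0.05 in edgeR, 10 members were lower in ADN tumors and 2 higher. F13a1 and Cd68 lay just outside the threshold for a fall (adjusted p = 0.0539 and 0.0552, edgeR). The median over the 39 genes was -0.63 (-0.08 over all genes), and 7 of 39 were positive. In ADC tumors Il1rn, Cd14, Atp6v0d2, Ly6c2 and Plet1 rose (5 of 39, with 1.01% of all genes passing) and 0 fell (3.98% of all genes). For the falls in ADC tumors, 3 members had an unadjusted p under 0.05 in edgeR and DESeq2 called 3, in both cases Cd163, F13a1 and Lyz1. The median was 0.70 (0.00 over all genes) and 29 of 39 were positive. The ADN and ADC comparisons share the normal lung of mouse m335.

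By role, the ADN and ADC values stood as follows. The 8 alveolar identity genes had a median log2 fold change of -0.01 in ADN and 0.96 in ADC tumors, and the 9 lysosomal and lipid genes -0.66 and 0.67. For the 9 surface receptors the medians were -0.95 and 0.04, for the 4 monocyte genes -1.16 and -0.35, and for the 4 secreted factors -0.32 and 1.95. The 3 C1q chains had a median of -0.63 in ADN and 0.35 in ADC tumors, with 0 past the threshold or under an unadjusted p of 0.05 against normal lung in edgeR. Single tumors did not all follow their tag. Against its own normal lung, the median member was at -0.43 in the ADN tumor of mouse m335, -0.72 in that of m368 and 0.13 in that of m350. In ADC tumors it was at 0.74 in m335, 0.46 in m372 and 0.63 in m378. Members above their own normal lung numbered 8, 9 and 20 of 39 in the ADN tumors and 31, 23 and 26 in the ADC tumors. Over all genes tested the shares above were 47.87%, 44.16% and 45.25% in the ADN tumors. In the ADC tumors they were 49.45%, 49.51% and 50.24%. The members' shares were 51.28% in the ADN tumor of m350 and 58.97% in the ADC tumor of m372, the nearest to those of all genes. Thus 1 ADN tumor, that of mouse m350, had about as many members above as below its own normal lung.

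Some members that did not pass lay close to the threshold or kept one direction. Cd68, the lysosomal glycoprotein used to stain macrophages, was at 33.8, 102 and 61.1 CPM in ADN tumors and 126, 68.5 and 108 CPM in ADC tumors. Every ADN tumor was below its own normal lung and every ADC tumor above it, with log2 fold changes against normal lung of -0.96 ± 0.25 (adjusted p = 0.0552) and 0.67 ± 0.24 (adjusted p = 0.174). Fcgr4, an activating receptor for IgG, took the same directions in every tumor, at -0.95 ± 0.41 (adjusted p = 0.211) and 0.81 ± 0.39 (adjusted p = 0.3215). Gpnmb, a glycoprotein of lipid-laden macrophages, ranged from 7.36 CPM in the ADN tumor of mouse m335 to 255 CPM in the m368 normal lung. Ear2 was at 1.18 ± 0.27 in ADC tumors (adjusted p = 0.0508).

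**Figure D2:**
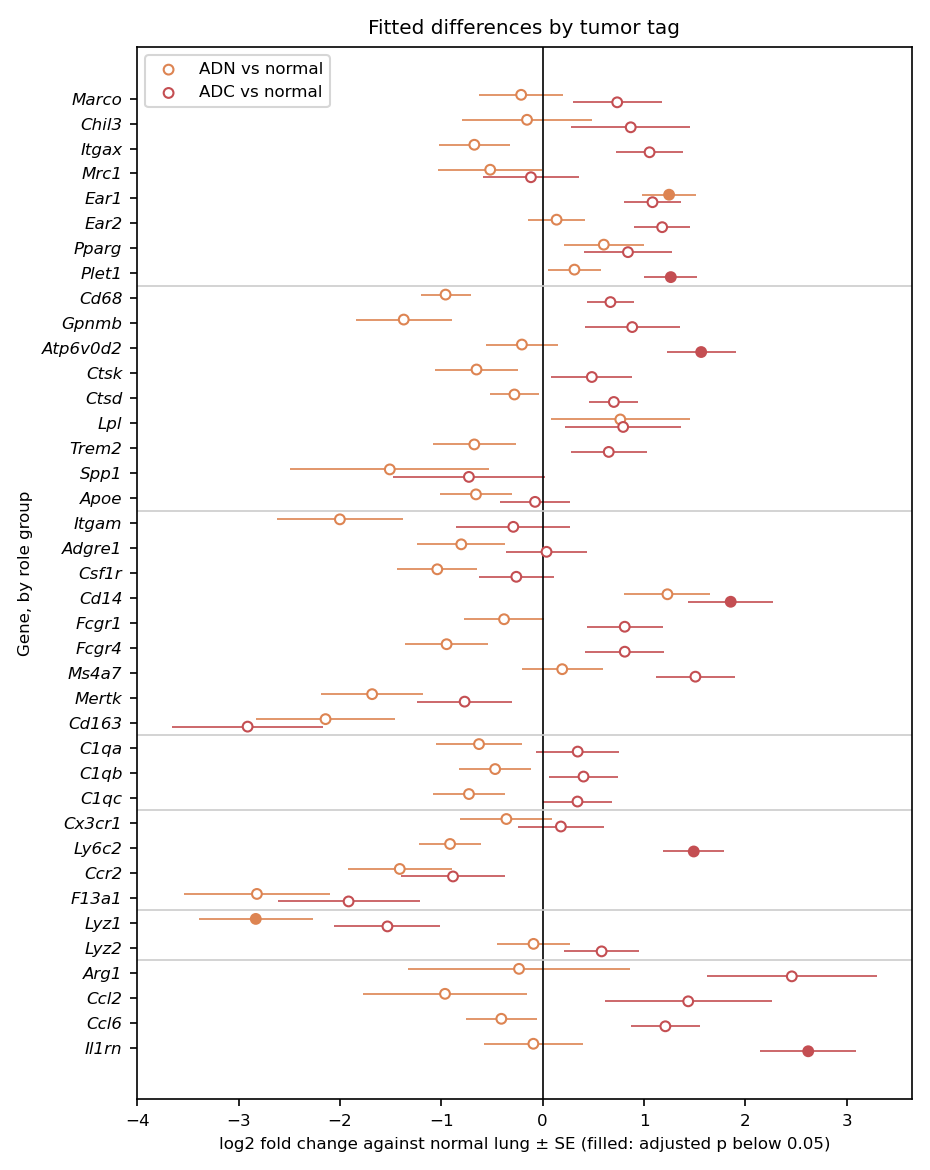
Points give the fitted log2 fold change against normal lung for ADN (orange) and ADC tumors (red) with the SE as bars, for each gene by role group; filled points passed at an adjusted p under 0.05. Most ADN points lie left of zero and most ADC points right of it, with medians of -0.63 and 0.70; Cd163, F13a1, Ccr2 and Lyz1 are among those left of zero for both tags.

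In ADC tumors the rise was largest for Il1rn, 2.62 ± 0.47 (adjusted p = 0.0201), then Cd14, 1.86 ± 0.42 (0.0475), Atp6v0d2, 1.56 ± 0.34 (0.0407), Ly6c2, 1.49 ± 0.30 (0.0325), and Plet1, 1.26 ± 0.26 (0.0346). For Atp6v0d2 and Plet1 the ADC tumors overlapped the normal lungs because of the normal lung of mouse m368. For Cd14 the ADC tumor of mouse m372 (86.6 CPM) lay below the normal lungs of m368 (108 CPM) and m378 (96.1 CPM). For Ly6c2 the same tumor (54.8 CPM) lay below the normal lung of m350 (56.5 CPM). Only Il1rn had all ADC tumors above all normal lungs. In 3 of 3 ADC tumors each of the 5 genes was above its own normal lung. These calls lay close to the threshold. Without mouse m372, without mouse m378 or without the ADN tumor of mouse m335, 0 of the 5 passed, with adjusted p values of up to 0.165, 0.218 and 0.121. Leaving out all 3 libraries of m335 ended the calls of Cd14 (0.0784), Il1rn (0.0757), Ly6c2 (0.0884) and Atp6v0d2 (0.0517), and leaving out its normal lung those of Cd14 (0.0811), Il1rn (0.0668), Ly6c2 (0.0859) and Plet1 (0.0584). Leaving out its ADC tumor ended those of Cd14 (0.0813) and Ly6c2 (0.0722). Cd14 (0.0915), Atp6v0d2 (0.0639) and Ly6c2 (0.0608) were lost with m368 left out, and Cd14 (0.0963) and Plet1 (0.0651) with m350 left out. Without the mouse block 2 of the 5 passed, Il1rn and Ly6c2. In ADN tumors Ear1 was at 1.25 ± 0.27 (adjusted p = 0.0327) and Lyz1 at -2.83 ± 0.56 (adjusted p = 0.0249). Leaving out any one mouse ended the call of Ear1 (adjusted p from 0.0571 to 0.119), as did leaving out the m335 ADN tumor (0.2004) or the mouse block (0.059). That of Lyz1 was lost without mouse m350 or m368 or the ADN tumor of mouse m335 (0.0954, 0.0718 and 0.173).

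**Figure D3:**
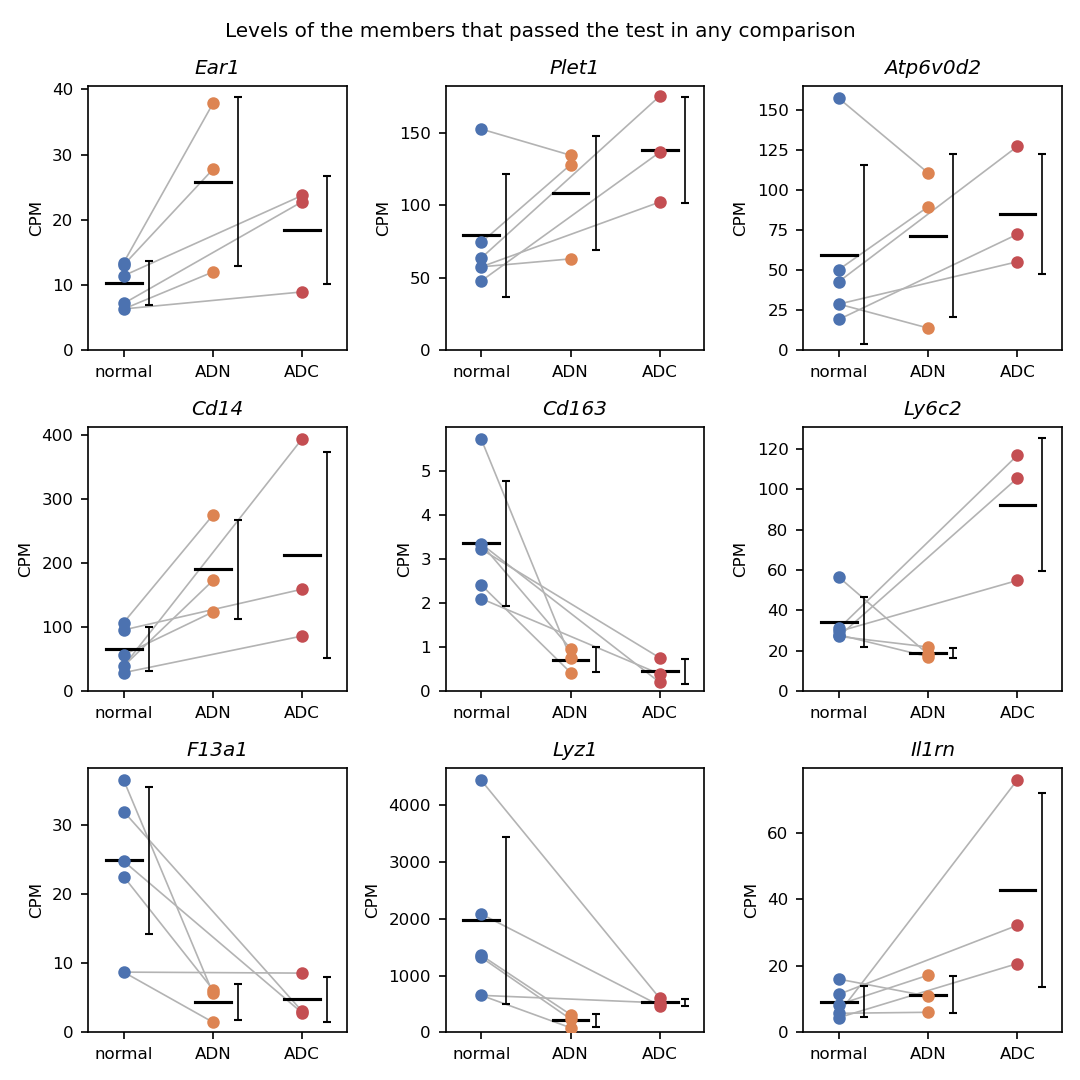
Points are CPM in single libraries for the 9 members that passed in any comparison, with gray lines from each tumor to the normal lung of its mouse, short black lines for group means and bars for the SD (n = 5, 3 and 3). Tumors lie below all normal lungs for Cd163, F13a1 and Lyz1, and the 3 ADC tumors lie above all other libraries for Il1rn.

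Tested directly, ADC against ADN tumors gave 0 of 39 members past the threshold in edgeR, as it gave 0.0% of all genes tested. Of the members 16 had an unadjusted p under 0.05, and of all genes 992. DESeq2 called 7 members (Atp6v0d2, Ccl6, Cd68, Gpnmb, Il1rn, Itgax and Ly6c2), all higher in ADC tumors, and 125 of all genes. The fitted difference was positive for 37 of 39 members with a median of 0.98, beside 53.3% of all genes and 0.04. It rests in part on the pairing: without the mouse block 29 of 39 were positive with a median of 0.43. Without mouse m335, the only one with both kinds of tumor, 28 were positive with a median of 0.49, and without mouse m368 35 with a median of 1.03. Ly6c2 differed by 2.404 ± 0.38 (adjusted p = 0.393), Il1rn by 2.71 ± 0.61 (adjusted p = 0.7) and Cd68 by 1.63 ± 0.31 (adjusted p = 0.604). Times after NNK were 4, 6 and 7 months for the ADN tumors and 4, 7 and 7 months for the ADC tumors.

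Further genes of these cells, and of factors that act on them, came from lists drawn up beside the members. Their counts in tumors against normal lungs follow, to be read beside the 3.68% of all genes tested that rose and the 7.91% that fell. Among 18 tested growth factors and receptors 3 rose and 1 fell. Csf1, the main macrophage growth factor, fell from 57.6 ± 7.04 (SD, n = 5) to 20.6 ± 10.7 CPM (SD, n = 6), by 1.60 ± 0.30 on the log2 scale (adjusted p = 0.011), while Il34, the other ligand of Csf1r, rose from 22.4 ± 2.20 to 48.1 ± 14.1 CPM (1.09 ± 0.19, adjusted p = 0.0077). All tumors were below all normal lungs for Csf1 and above them for Il34. Cebpa (1.62 ± 0.41) and Mitf (0.95 ± 0.19), transcription factors used in myeloid cells and elsewhere, were the other 2 that rose. Csf2, the gene of GM-CSF, was at 1.24 ± 0.40 (adjusted p = 0.0841); it is named here after its value was seen.

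Of 13 tested genes of interstitial and perivascular macrophages 0 rose and 2 fell, Lyve1 (-2.30 ± 0.30) and Stab1 (-1.35 ± 0.17). Both are receptors that endothelium also carries. Of 14 further monocyte genes 0 rose and 4 fell, among them Cd300e (-2.72 ± 0.74), Ace (-2.12 ± 0.32) and Ifitm3 (-1.35 ± 0.34). Ace is also abundant in lung capillaries, and all 8 endothelial markers fell in tumors, with a summed level of 2944 to 4748 CPM in normal lungs and 544 to 1055 CPM in tumors. Summed fibroblast markers were 1494 to 2318 CPM in normal lungs and 763 to 1372 CPM in tumors. The part of either tissue in the falls of Lyve1, Stab1, Ace, Ifitm3 and Csf1 was not tested. Among 14 chemokines 1 rose, Ccl17 (1.31 ± 0.32), and 2 fell, Cxcl14 (-1.60 ± 0.22) and Cxcl12 (-0.95 ± 0.22). Which cells of the tissue gave the RNA of Csf1, Il34, Csf2, Cxcl12 and Cxcl14 was not tested. In 20 further alveolar macrophage genes Bhlhe40 rose (0.86 ± 0.20) and the lipid droplet gene Cidec fell (-2.62 ± 0.67). Adipocytes also express Cidec, and the summed adipocyte markers were 20.4 to 529 CPM in normal lungs and at most 4.23 CPM in tumors. Their part in the fall of Cidec was not tested.

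Of 22 lysosomal and matrix proteases 1 rose, cathepsin H (Ctsh), from 282 ± 34.3 (SD, n = 5) to 1486 ± 466.5 CPM (SD, n = 6), with a log2 fold change of 2.32 ± 0.24 (adjusted p = 0.000914). Alveolar type 2 cells use this protease to process surfactant protein. Tlr4, the partner of Cd14, was the 1 gene that rose among 17 phagocytic and innate receptors (0.97 ± 0.16, adjusted p = 0.00496, above the own normal lung in 6 of 6 tumors), and Hmox1 the 1 among 14 activation genes (1.08 ± 0.20). The activation list summed to 1434 CPM in the ADC tumor of mouse m335 and to 300.3 to 548 CPM in the other tumors.

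**Figure D4:**
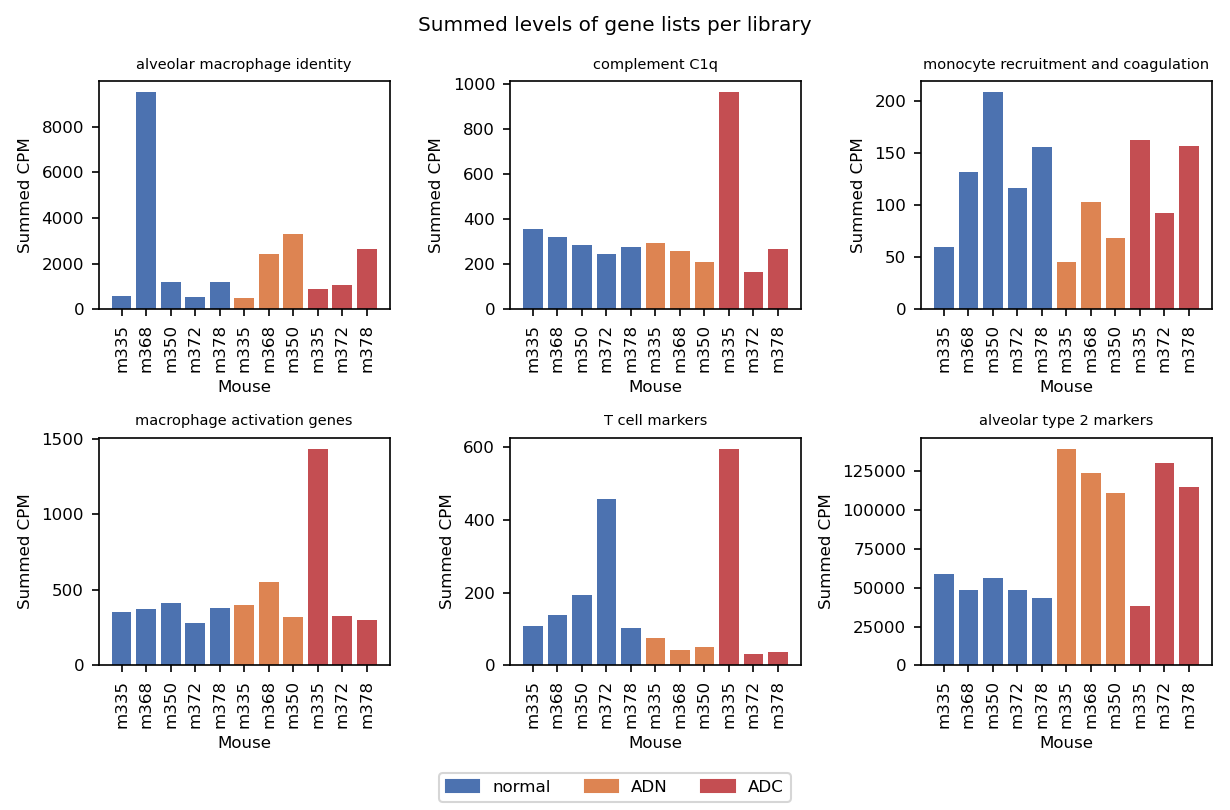
Bars give the summed CPM of 6 gene lists in each library, blue for normal lungs, orange for ADN and red for ADC tumors, labelled by mouse. The alveolar macrophage sum peaks in the normal lung of mouse m368 at 9508 CPM, and C1q, activation and T cell sums peak in the ADC tumor of mouse m335, at 965, 1434 and 595 CPM.

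Csf1r served as a reference for genes of like pattern. The 10 genes with the highest Pearson's r of log2 CPM with it, over 11 libraries from 5 mice, had r from 0.947 to 0.967 and included Vim, Klrk1, Rasa4, Irf7, Plekha2, Rinl, Isg15, Arhgdib and Pik3ip1. None of the 10 is among the 39 members. Within role groups the median r was highest for the C1q chains (0.904) and the alveolar identity genes (0.706) and lowest for the monocyte group (0.261), apart from the single lysozyme pair at 0.045. Over all 741 pairs of members it was 0.346.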

How the data were processed

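RNA of 5 normal lungs and 6 tumors was sequenced as poly-A libraries on an Ion Proton, per the labels. The submitters' processing notes name mm10, Partek, Bowtie2 2.1.0 and STAR 2.4.1d; the sources used here do not give the counting rule, annotation release or strand. The authors deposited expected counts for 36285 transcripts, estimated and partly fractional. These were summed by gene (58 rows for the 39 members) and rounded. Members with visibly fractional sums numbered 25 of 39, so copies and antisense genes may share reads. The largest counts carried no decimals, so fractions there could not be seen. Rn45s held 7.29% to 19.2% of counts.

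Genes passing filterByExpr (15175) were fitted with edgeR 4.0.16 in R 4.3.3 (TMM, robust quasi-likelihood F test, Benjamini-Hochberg adjustment). The fit of tumors against normal lungs was also run on simulated counts, which held the same dispersion for all genes and no mouse effect or outlying library. That run cannot speak to the pairing or to the ADN and ADC comparisons. The mouse was the block because the study pairs normal lungs with tumors by mouse; deviations correlated between tumor and own normal lung at 0.24, 0.109, 0.00493, -0.0444, -0.0367 and 0.254. A fit of tumors against normal lungs and a fit with 3 groups were used. The SE is the absolute log2 fold change divided by the square root of the F statistic. Values in every library are given for members past the threshold in any comparison, the largest difference and highest level in each role group, the paralog pairs and C1q; list genes past the threshold in tumors against normal lungs are given, at most 4 per list, except some genes that are not reported here. Alternatives were other scalings and filters, DESeq2 1.42.0, no block, and left-out libraries. The members and lists were chosen with earlier results of these data known.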

Additional observations from a re-analysis of the deposited data

Results flagged for a closer look

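Single libraries stood far from the rest of their group for 26 of the 78 gene and group pairs examined (39 genes in 5 normal lungs and in 6 tumors). The test took the gap to the nearest library in CPM, without a log scale. Chance flags about 1 in 20 groups only where values follow a normal distribution, and skewed CPM can be flagged more often. The 26 flags are therefore a description and not a measured excess over chance. Genes of the same cells are also not independent. In the normal lung of mouse m368, levels were 8718 CPM for Chil3, 179.8 for Itgax, 189.5 for Mrc1, 124.1 for Ear2, 26.7 for Pparg, 152.6 for Plet1, 255.3 for Gpnmb, 157.0 for Atp6v0d2, 140.2 for Ctsk, 3710 for Ctsd, 39.28 for Trem2, 16980 for Lyz2 and 1377 CPM for Ccl6. The nearest normal lung held 915.4 CPM of Chil3, 56.86 of Gpnmb and 355.5 CPM of Ccl6. Csf1r was low in the normal lung of mouse m372, at 86.89 CPM, and Ly6c2 high in that of mouse m350, at 56.48 CPM.

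Among tumors, the ADC tumor of mouse m335 was high for Apoe (1432 CPM), Csf1r (178.5), C1qa (339.1), C1qb (352.9), C1qc (272.9), Arg1 (135.1), Ccl2 (22.59) and Il1rn (75.98 CPM). The ADN tumor of mouse m368 was high for Lpl (2269 CPM) and Cx3cr1 (62.88 CPM), and that of mouse m350 for Spp1 (546.2 CPM).

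For 3 genes every ADC tumor lay above and every ADN tumor below its own normal lung: Cd68, Fcgr4 and Ly6c2. Their fitted ADC minus ADN differences were 1.626, 1.758 and 2.404 on the log2 scale, with adjusted p values of 0.604, 0.732 and 0.393 in edgeR.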

How the results depend on the processing

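Over 14 alternatives, 298 of 364 values of single members kept their side of the threshold, 60 lost and 6 gained a call. The 364 pool results that had passed with results that had not, and only the former could lose a call. The 298 of 364 is therefore not a measure of how stable the calls were. Among called results, Cd14 in ADC tumors lost its call in 10 of 14 alternatives. Ear1 in tumors against normal lungs lost it in 1 of 14. Of the 298, 286 kept their direction and 12 changed sign, none of them past the threshold: 11 of the C1q chains and 1 of Chil3 (no block). Of 112 counts of members called under the alternatives, 67 stayed close to the main count and 45 moved away from it. All 8 counts are small, so 1 gene can move them. DESeq2 called more members: 4 higher and 5 lower in tumors against normal lungs, 2 and 8 in ADN tumors, 12 and 3 in ADC tumors, and 7 higher in ADC against ADN tumors. It also called more of all genes, 1287 higher and 1999 lower, 1062 and 1869, 552 and 1306, and 54 and 71 in these comparisons. Under library totals 3 were higher and 1 lower in ADC tumors, and 3 lower in ADN tumors. With no replicate block, that is without pairing by mouse, 1 was higher in tumors against normal lungs, 0 higher and 3 lower in ADN tumors, and 2 higher and 2 lower in ADC tumors, and the members' median for ADC against ADN tumors was 0.4319 in place of 0.98. Leaving out a mouse or a library of mouse m335 gave 1 to 4 higher and 0 to 7 lower in tumors against normal lungs, 0 to 2 higher and 0 to 6 lower in ADN tumors, and 0 to 5 higher and 0 to 3 lower in ADC tumors. Calls over all genes moved too, from 216 to 1447 higher and 703 to 1930 lower, 0 to 792 and 0 to 1180, and 5 to 361 and 61 to 706. The members' median for tumors against normal lungs ranged from -0.1133 (without the m335 ADC tumor) to 0.3372 (without m368), and was -0.1055 under library totals. The cause of these moves was not tested. Counts of 6 to 184 limit Cd163.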
